A study of Homo sapiens with 18 samples.

Results

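The 36 genes described here carry out the integrated stress response and the unfolded protein response, and they were taken by symbol from the 58815 genes of the counts table, in all 18 libraries. They are 6 transcription factors, 3 genes of the ER (endoplasmic reticulum) sensor arms, 7 feedback and stress targets, 9 genes of amino acid and one-carbon metabolism and 11 genes of ER protein folding and degradation. The study asked how the loss of WDR5, an adaptor protein of chromatin complexes, changes the transcriptome of metastatic breast cancer cells. The cells were LM2, BrM3 and BoM, sublines of the human triple-negative breast cancer line MDA-MB-231 that had been selected in mice for spread to lung, brain and bone. BrM3 was derived from BrM2, the name used in the cell line labels, by 1 further round of selection in vivo.

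There were 6 groups of 3 libraries: LM2 with shCtrl, LM2 with shWDR5-1, BrM3 with shCtrl, BrM3 with shWDR5-1, BoM with shCtrl and BoM with shWDR5-1. Every group carried a hairpin in the doxycycline (DOX)-inducible pINDUCER10 vector, introduced at a multiplicity of infection of 1, and every group received DOX at 1 μg/mL for 3 days, controls included. shWDR5-1 is 1 hairpin, so effects of this hairpin on other genes and the loss of WDR5 cannot be told apart. The 3 replicates of a group were harvested at different passages. Total counts on genes ranged from 17485841 to 119667013 per library, and mitochondrial genes took 4.37% to 6.97%. Values below are in CPM, read counts scaled to a common library size after TMM (trimmed mean of M-values) normalization, unless another scale is named. They are therefore levels relative to the rest of the transcriptome, and in such bulk RNA fewer expressing cells and less RNA per cell cannot be told apart. VIM and CD44, which mark the mesenchymal state of MDA-MB-231, ranged from 1495 to 2231 and from 498 to 765 CPM. The epithelial genes KRT8 and KRT18 had at least 194 CPM, EPCAM had 4.39 to 10.1 CPM and CDH1 at most 0.601 CPM. ESR1 and PGR did not exceed 0.715 CPM and ERBB2 had 41.5 to 83.4 CPM. PTPRC of leukocytes did not exceed 1.06 CPM, ALB of hepatocytes 0.225 CPM and PECAM1 of endothelium 4.67 CPM, while COL1A1 of fibroblasts ranged from 1.77 to 87.1 CPM.

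In the integrated stress response, kinases that sense ER stress, amino acid shortage, viral RNA or haem shortage phosphorylate the translation factor eIF2, which lowers protein synthesis but favours translation of the ATF4 mRNA. ATF4 then activates genes of amino acid supply, the pro-apoptotic factor DDIT3 (CHOP) and PPP1R15A (GADD34), which brings a phosphatase back to eIF2. In the unfolded protein response, the ER membrane sensors IRE1 (encoded by ERN1), PERK and ATF6 detect misfolded proteins, and XBP1 and ATF6 raise the chaperones, disulfide isomerases and degradation factors of the ER. Much of this control acts on translation, splicing and protein cleavage, which gene counts do not measure.

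Promoter letters that mark the ATF4 arm and the ER arm are shown first, because the members fell into these arms. Promoter windows from 250 bases before to 50 bases after the start were taken from RefSeq (build GRCh38.p14), where 32 of the 36 members matched, with 49 windows among 35116; ALDH1L2, NUPR1, PSPH and SHMT2 were not searched. Both strands were searched for TGATGNAA, the core of the C/EBP-ATF response element bound by ATF4 with C/EBP partners, for CCAAT and CCACG 9 bases apart, the ER stress response element, and for TGACGTGG, the unfolded protein response element. The end of the ER stress response element is also the start of the opposite-strand form of TGACGTGG, so these matches can overlap. The C/EBP-ATF core stood in 4 of the 49 member windows, from 4 members, ASNS, CEBPG, CHAC1 and HERPUD1, and in 3.62% of all windows. The matches are shown in capitals on the strand of each gene. They lie at chr7:97872449-97872496 (minus strand), chr19:33374051-33374098 (plus), chr15:40953242-40953289 (plus) and chr16:56931946-56931993 (plus), and in CHAC1 and HERPUD1 the motif reads on the opposite strand:
ASNS: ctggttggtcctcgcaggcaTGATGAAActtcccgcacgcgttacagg
CEBPG: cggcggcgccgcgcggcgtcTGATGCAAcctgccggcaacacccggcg
CHAC1: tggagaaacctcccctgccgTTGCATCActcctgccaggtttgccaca
HERPUD1: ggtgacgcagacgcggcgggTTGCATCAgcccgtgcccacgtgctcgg

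The ER stress response element stood in 7 of the 49 member windows, from 5 members, CALR, CANX, CRELD2, PDIA6 and XBP1. Of all windows, 0.0769% held it (27 of 35116). These sites lie at chr19:12938364-12938422 (plus strand), chr5:179698758-179698816 (plus), chr22:49918534-49918592 (plus), chr2:10812833-10812891 (minus) and chr22:28800583-28800641 (minus). In CALR and CRELD2 the motif reads on the opposite strand of the gene:
CALR: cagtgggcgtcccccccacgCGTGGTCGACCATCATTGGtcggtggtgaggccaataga
CANX: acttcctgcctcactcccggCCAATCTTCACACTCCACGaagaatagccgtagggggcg
CRELD2: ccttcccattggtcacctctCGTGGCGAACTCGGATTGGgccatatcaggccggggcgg
PDIA6: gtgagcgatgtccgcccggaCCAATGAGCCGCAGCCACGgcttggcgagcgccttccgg
XBP1: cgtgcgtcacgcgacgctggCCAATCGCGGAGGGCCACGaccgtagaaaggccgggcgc
TGACGTGG stood in 1 of the 49 member windows, that of HYOU1, and in 0.729% of all windows. These matches are letters in a window and not measured binding.

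WDR5 itself was measured first. It had 113, 128 and 134 CPM in the LM2 shCtrl libraries and 24.3, 24.4 and 20.5 CPM with shWDR5. On the log2 scale this was -2.43 (standard error 0.14, adjusted p = 1.8e-08). In BrM3 it had 85.5, 93.3 and 79.4 CPM with shCtrl and 20.8, 21.3 and 23.5 CPM with shWDR5, and in BoM 87.5, 90.5 and 90.4 CPM against 14, 21.1 and 22.1 CPM. The groups did not overlap in any line, and the log2 fold changes in BrM3 and BoM were -1.97 and -2.24 (standard error 0.14 each, adjusted p = 4.2e-07 and 6.2e-08). Here and below, adjusted p-values come from edgeR's quasi-likelihood test with Benjamini-Hochberg adjustment over 12081 expressed genes, and a gene under 0.05 is called.

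Of the 36 members, 33 passed the filter on low values, a highest normalized count above 146. STC2, ASNS and CBS did not. In LM2, 3 of the 33 tested members were higher with shWDR5 (9.09%, against 1.48% of all tested genes) and 0 were lower (4.78% of all tested genes). For the lower members, 2 had an unadjusted p under 0.05 and DESeq2 called 1. In BrM3, 2 members were higher (6.06%, against 2.87%) and 1 was lower (3.03%, against 7.87%). In BoM, 4 members were higher (12.1%, against 5.41%) and 1 was lower (3.03%, against 10.7%). In BoM each same-numbered pair of shCtrl and shWDR5 libraries deviated together, with correlations of 0.145 to 0.566. An unmatched pair there, shCtrl replicate 2 with shWDR5 replicate 3, had 0.211, and single matched pairs reached 0.729 in LM2 and 0.546 in BrM3. With the replicate number as a block 8 members were higher in BoM (11.2% of all tested genes) and 3 lower (15% of all tested genes). That fit added ATF4, CEBPG, SESN2 and XPOT to the higher members in BoM and SDF2L1 and SEL1L to the lower ones, with adjusted p from 0.0051 for SEL1L to 0.04 for ATF4. The median log2 fold change of the tested members was 0.11, 0.03 and -0.04 in LM2, BrM3 and BoM. Over all tested genes it was -0.001, -0.005 and 0.015. The calls therefore fell on a few genes, and the plot of responses by line shows most members close to 0.

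**Figure D1:**
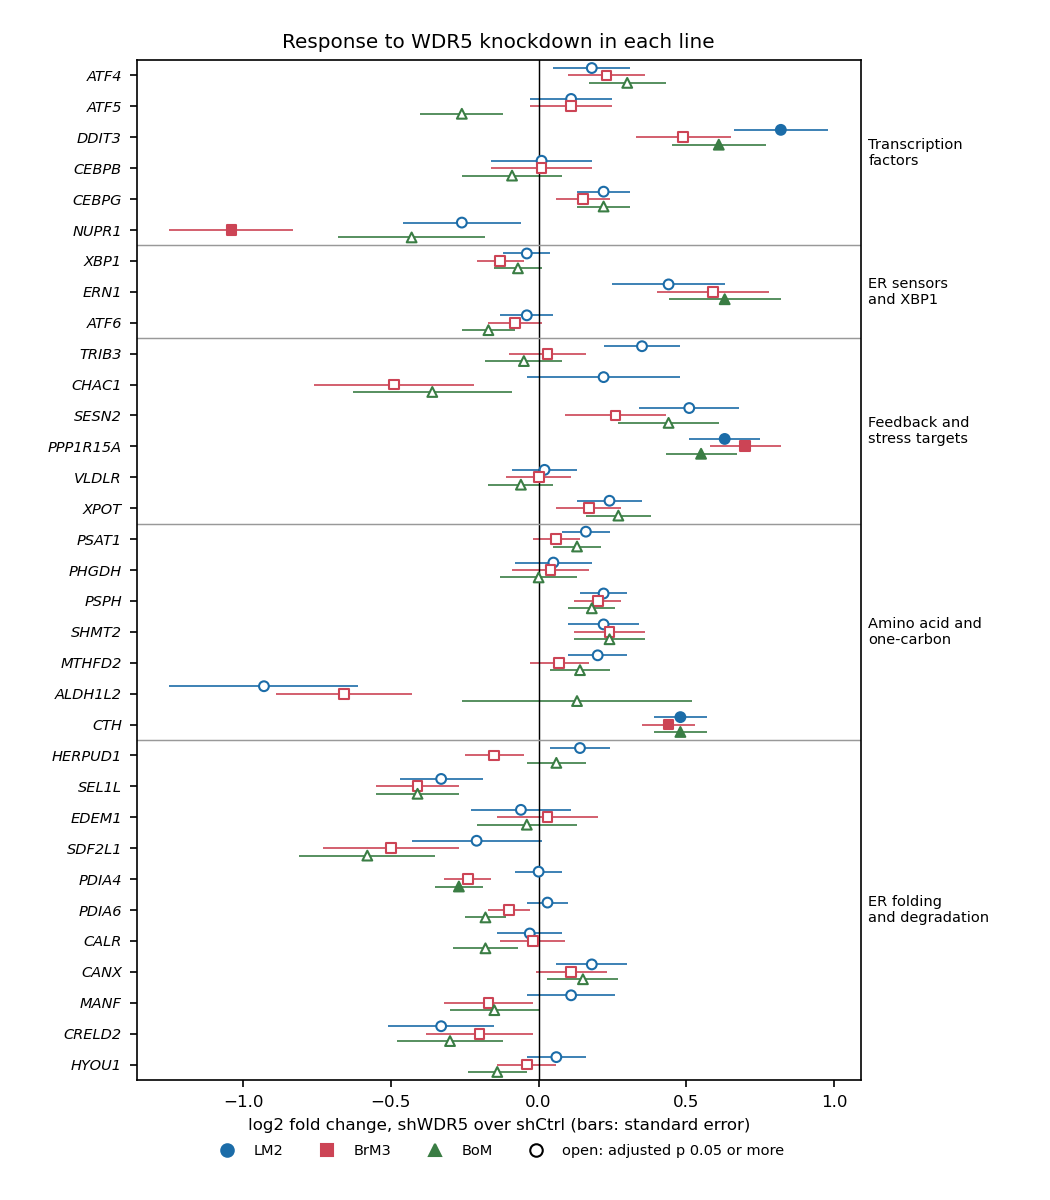
Log2 fold change of shWDR5 over shCtrl (x axis) for the 33 tested members (y axis, grouped by role), with points for LM2, BrM3 and BoM, bars for the standard error and filled points for an adjusted p under 0.05. PPP1R15A and CTH are filled in all 3 lines between 0.44 and 0.70, DDIT3 in LM2 and BoM, and NUPR1 stands at -1.04 in BrM3.

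Averaged over the 3 lines with equal weight, 10 of the 33 tested members were higher with shWDR5 (30.3%, against 15.6% of all tested genes) and 5 were lower (15.2%, against 19.9%). The higher members were DDIT3, PPP1R15A, ERN1, CTH, SESN2, ATF4, SHMT2, XPOT, CEBPG and PSPH, of which ERN1 is the 1 member from the ER sensor arms. The lower members were NUPR1, SDF2L1, SEL1L, CRELD2 and PDIA4, and apart from NUPR1 these act inside the ER. The median over the tested members was -0.01, against 0.003 over all tested genes. The share of higher calls was thus above that of all genes and the share of lower calls below it, and neither share was tested.

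**Figure D2:**
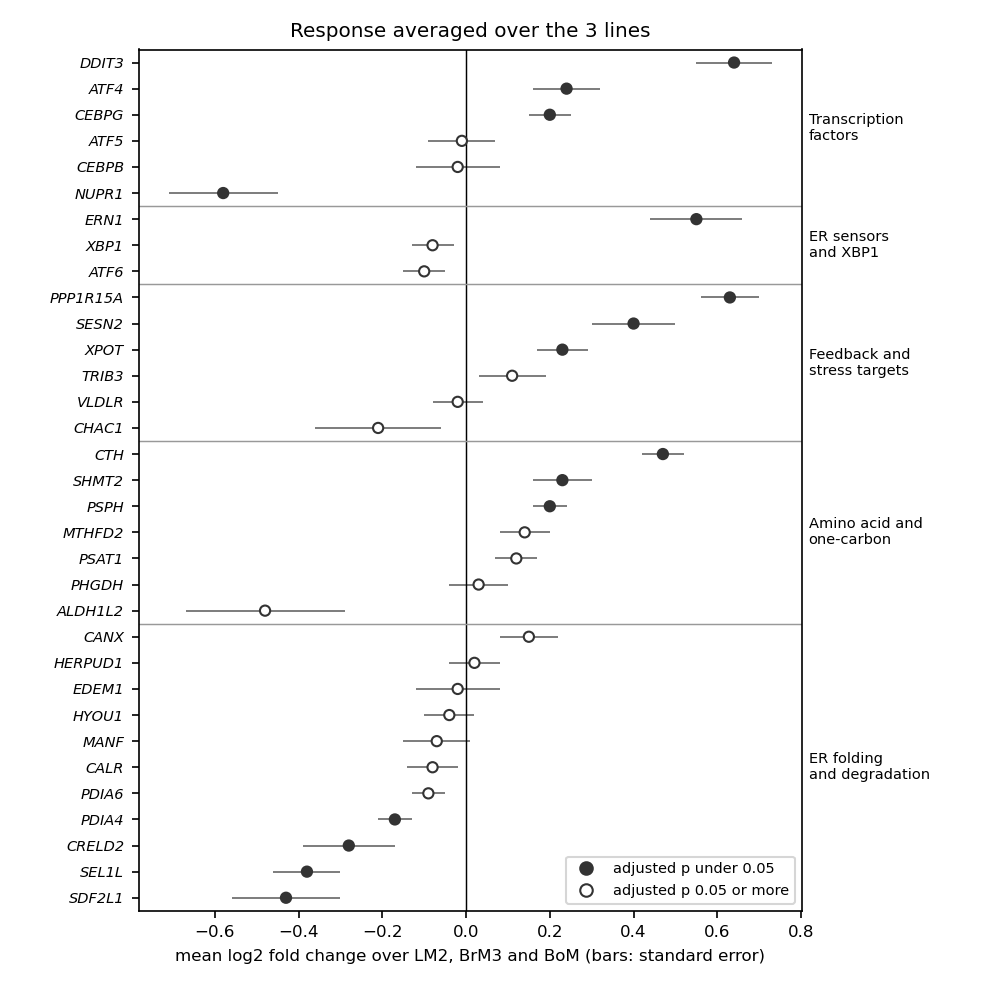
Mean log2 fold change over LM2, BrM3 and BoM (x axis) for the 33 tested members ordered by size within each role (y axis), with bars for the standard error and filled points for an adjusted p under 0.05. DDIT3 (0.64) and PPP1R15A (0.63) stand highest, and 4 of the 11 genes of ER folding and degradation are filled to the left of 0.

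Among the transcription factors, ATF4 (ENSG00000128272; chromosome 22, 39519695 to 39522683, GRCh38) is the central activator of the integrated stress response. It had 459, 437 and 520 CPM in LM2 with shCtrl and 512, 483 and 614 CPM with shWDR5. In BrM3 it had 431, 426 and 411 CPM with shCtrl and 438, 522 and 527 CPM with shWDR5. In BoM it had 490, 588 and 565 CPM with shCtrl and 534, 672 and 814 CPM with shWDR5. The groups overlapped in LM2 and BoM and did not in BrM3. The mean log2 fold change was 0.24 (standard error 0.08, adjusted p = 0.024). Over the 18 fits that left out a library it ran from 0.18 to 0.28, and the ATF4 call was lost in 1 of them, without replicate 2 of LM2 shCtrl. In the single lines ATF4 changed by 0.18, 0.23 and 0.30 in LM2, BrM3 and BoM (standard error 0.13 each), with adjusted p of 0.5, 0.31 and 0.14.

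DDIT3 (ENSG00000175197; chromosome 12, 57516588 to 57521737), the CHOP factor induced downstream of ATF4, had 11.7, 11.5 and 12.9 CPM in the LM2 shCtrl libraries and 19.6, 21.3 and 23.1 CPM in the LM2 shWDR5 libraries. In BrM3 its values were 12.5, 13.5 and 12.2 CPM with shCtrl and 14.8, 20 and 18.8 CPM with shWDR5. In BoM they were 16.8, 16.5 and 17 CPM with shCtrl and 21.4, 21.4 and 34.4 CPM with shWDR5. Every shWDR5 library thus exceeded every shCtrl library of its line. With a standard error of 0.16 in each line, the log2 fold change of DDIT3 was 0.82 in LM2 (adjusted p = 0.004), 0.49 in BrM3 (adjusted p = 0.052, not called) and 0.61 in BoM (adjusted p = 0.013), with a mean of 0.64 (standard error 0.09, adjusted p = 3.8e-05). BoM rested on its highest library: without replicate 3 of BoM shWDR5 the change there was 0.35 and no longer called. A fit of BoM alone also lost the DDIT3 call, while DESeq2 and a fit of BrM3 alone called DDIT3 in BrM3. Of the exon bases of DDIT3, 27.2% overlap MARS1 on the opposite strand, which had 3220 to 30950 counts per library, and the strand setting of the counts is not given in the sources used here. MARS1, listed in the table under its older symbol MARS, changed by 0.10, 0.03 and 0.02 in LM2, BrM3 and BoM (adjusted p = 0.53, 0.83 and 0.87).

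NUPR1 (ENSG00000176046; chromosome 16, 28532708 to 28539008), a small stress-induced chromatin protein and a target of ATF4, went the other way. It had 9.71, 11 and 8.56 CPM in BrM3 with shCtrl and 5.19, 4.82 and 4.32 CPM in BrM3 with shWDR5, and these groups did not overlap. In LM2 it had 9.72, 10.7 and 14.5 CPM with shCtrl and 9.31, 7.91 and 12.3 CPM with shWDR5, and in BoM it had 2.28, 2.01 and 1.26 CPM with shCtrl and 1.5, 1.09 and 1.62 CPM with shWDR5. The groups overlapped in LM2 and in BoM, where the level was lowest. NUPR1 fell in BrM3 (log2 fold change -1.04, standard error 0.21, adjusted p = 0.0038), and its values were -0.26 and -0.43 in LM2 and BoM (standard errors 0.20 and 0.25), with adjusted p of 0.52 and 0.25. The mean was -0.58 (standard error 0.13, adjusted p = 0.0019).

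CEBPG, a C/EBP partner of ATF4, rose in the average by 0.20 (standard error 0.05, adjusted p = 0.0058), with 0.15 to 0.22 in the single lines. CEBPB, an activator of inflammatory and differentiation genes, had a mean of -0.02 (standard error 0.10), and ATF5, which like ATF4 is controlled through upstream reading frames, had 0.11, 0.11 and -0.26 in LM2, BrM3 and BoM. Neither was called in any line or in the average. Of the exon bases of ATF5, 19.5% overlap NUP62 on the opposite strand.

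**Figure D3:**
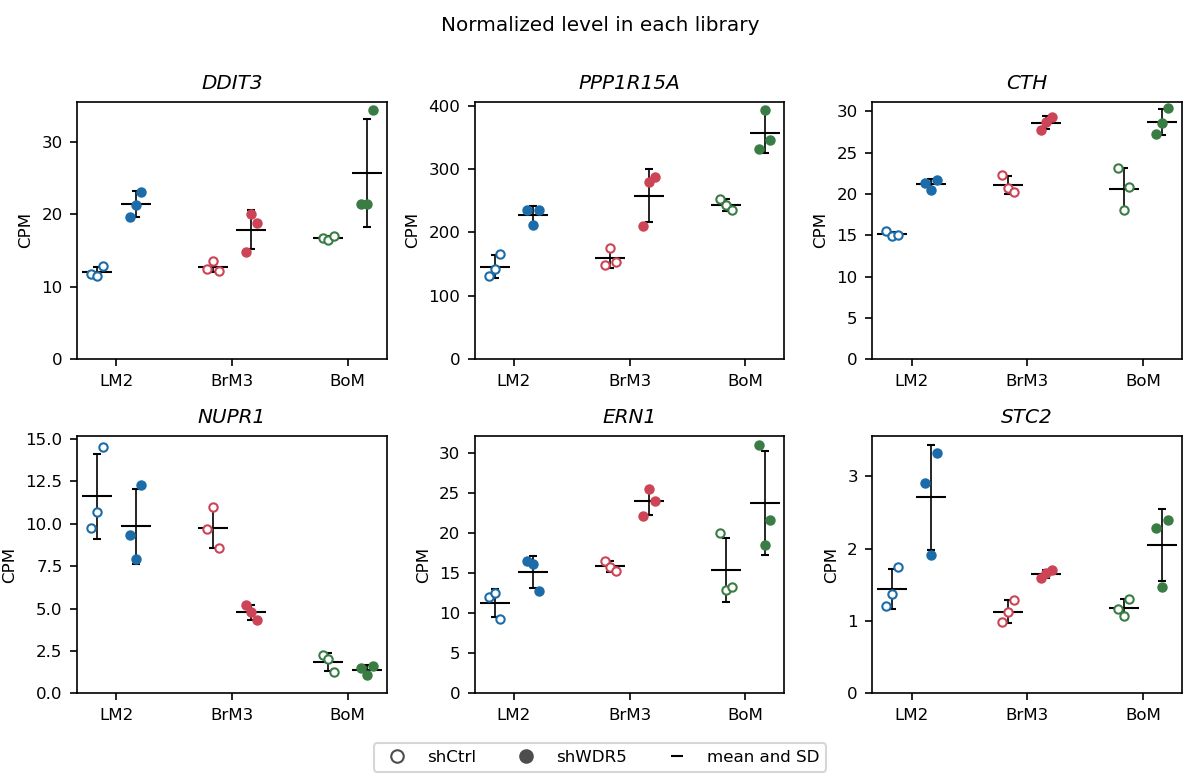
CPM (y axes, from 0) of 6 members in each library of LM2, BrM3 and BoM (x axis), with open points for shCtrl, filled points for shWDR5 and a line and bar for the mean and SD of 3 libraries. DDIT3, PPP1R15A and CTH are higher in every shWDR5 library than in every shCtrl library of the same line, while NUPR1 is lower without overlap in BrM3 alone of the 3 lines.

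In the sensor arms, ERN1, the kinase and endonuclease that splices XBP1, had 12, 12.6 and 9.29 CPM in LM2 with shCtrl and 16.5, 16.2 and 12.8 CPM with shWDR5. In BrM3 it had 16.6, 15.8 and 15.3 CPM with shCtrl and 22.2, 25.6 and 24.1 CPM with shWDR5. In BoM it had 20.1, 12.9 and 13.3 CPM with shCtrl and 31.1, 18.6 and 21.7 CPM with shWDR5, with replicate 1 the highest of both BoM groups. The groups did not overlap in LM2 and BrM3 and did in BoM. The log2 fold changes of ERN1 were 0.44, 0.59 and 0.63 in LM2, BrM3 and BoM (standard error 0.19 each), with adjusted p of 0.2, 0.052 and 0.032. The BoM call was lost without replicate 2 or 3 of BoM shCtrl or replicate 1 of BoM shWDR5, with values from 0.39 to 0.87, while the mean of 0.55 (standard error 0.11, adjusted p = 8.6e-04) was called in all 18 fits that left out a library. Fitting BoM alone also ended the BoM call, while DESeq2 and a fit of BrM3 alone called ERN1 in BrM3. XBP1 (mean -0.08, standard error 0.05) and ATF6 (mean -0.10, standard error 0.05) were not called.

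Among the feedback and stress targets, PPP1R15A (ENSG00000087074; chromosome 19, 48872212 to 48876059) was higher in all 3 lines. It had 131, 142 and 166 CPM in LM2 with shCtrl and 235, 211 and 235 CPM with shWDR5. In BrM3 the values were 149, 176 and 153 CPM with shCtrl and 210, 279 and 287 CPM with shWDR5, and in BoM they were 253, 243 and 235 CPM with shCtrl and 332, 393 and 346 CPM with shWDR5. No shWDR5 library overlapped the shCtrl libraries of its line. The log2 fold changes of PPP1R15A were 0.63, 0.70 and 0.55 in LM2, BrM3 and BoM (standard error 0.12 each), with adjusted p of 0.0037, 0.0013 and 0.0044. These are rises of 55%, 62.6% and 46.6%.

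SESN2, a sestrin that restrains mTORC1 when leucine is short, rose in the average by 0.40 (standard error 0.10, adjusted p = 0.0047), and so did XPOT, the nuclear exporter of tRNA, by 0.23 (standard error 0.06, adjusted p = 0.0077). Neither was called in a single line in the main fit. There SESN2 had 0.51, 0.26 and 0.44 and XPOT 0.24, 0.17 and 0.27 in LM2, BrM3 and BoM. The GC correction called SESN2 in LM2, BrM3 and BoM and XPOT in LM2. DESeq2 called SESN2 in LM2 and XPOT in BoM. SESN2 was also called in LM2 with no filter and in BoM after thinning. The replicate block called SESN2 in LM2 and BoM and XPOT in BoM. TRIB3, a pseudokinase that restrains ATF4, had 0.35, 0.03 and -0.05, and CHAC1, which degrades glutathione, had 0.22, -0.49 and -0.36. VLDLR, a lipoprotein receptor, had a mean of -0.02 (standard error 0.06). None of these 3 was called in a line or in the average in the main fit. With the replicate block in the edgeR test, TRIB3 was higher in LM2 (0.36, adjusted p = 0.034) and CHAC1 lower in BrM3 (-0.50, adjusted p = 0.031). The GC correction also called TRIB3 in LM2 and in the average.

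STC2, a secreted glycoprotein induced by ER stress, lay below the filter, with 26 to 214 counts per library. It had 1.21, 1.37 and 1.74 CPM in LM2 with shCtrl and 2.91, 1.91 and 3.32 CPM with shWDR5. In BrM3 it had 0.981, 1.13 and 1.29 CPM with shCtrl and 1.6, 1.66 and 1.7 CPM with shWDR5, and in BoM 1.17, 1.07 and 1.31 CPM against 2.28, 1.47 and 2.39 CPM. Each shWDR5 library again exceeded the shCtrl libraries of its line. With edgeR's filterByExpr, which kept 18428 genes, the log2 fold changes of STC2 were 0.86, 0.60 and 0.83 in LM2, BrM3 and BoM (standard errors 0.21, 0.23 and 0.24), with adjusted p of 0.025, 0.12 and 0.026.

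In amino acid and one-carbon metabolism, CTH (ENSG00000116761; chromosome 1, 70411218 to 70439851), the cystathionine lyase that releases cysteine, was higher in all 3 lines. It had 15.5, 14.9 and 15 CPM in LM2 with shCtrl and 21.3, 20.5 and 21.7 CPM with shWDR5. In BrM3 it had 22.3, 20.7 and 20.2 CPM with shCtrl and 27.8, 28.7 and 29.3 CPM with shWDR5, and in BoM 23.1, 18 and 20.8 CPM with shCtrl and 27.2, 28.6 and 30.4 CPM with shWDR5. The groups of a line did not overlap. The log2 fold changes of CTH were 0.48, 0.44 and 0.48 in LM2, BrM3 and BoM (standard error 0.09 each), with adjusted p of 0.0046, 0.0057 and 0.0023.

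The enzymes of serine synthesis moved less. PSPH, the phosphatase of the last step, rose in the average by 0.20 (standard error 0.04, adjusted p = 0.0019), and SHMT2, which splits serine in mitochondria, by 0.23 (standard error 0.07, adjusted p = 0.012). PHGDH, the first enzyme of the pathway, had a mean of 0.03 (standard error 0.07, adjusted p = 0.78). PSAT1, its next step, had 0.12 (standard error 0.05, adjusted p = 0.059), and MTHFD2 of the mitochondrial folate cycle had 0.14 (standard error 0.06, adjusted p = 0.076). DESeq2, filterByExpr and the replicate block called both PSAT1 and MTHFD2 in the average, and DESeq2 called PSPH in LM2, BrM3 and BoM. ALDH1L2, a mitochondrial folate dehydrogenase, had -0.93, -0.66 and 0.13 in LM2, BrM3 and BoM (standard errors 0.32, 0.23 and 0.39), with adjusted p of 0.095, 0.075 and 0.85. Its BrM3 libraries had 8.11, 7.92 and 8.2 CPM with shCtrl and 5.59, 5.09 and 4.76 CPM with shWDR5, without overlap, and the average of -0.48 missed the threshold (adjusted p = 0.051). With shCtrl, ALDH1L2 had 0.678 to 1.29 CPM in LM2 and 0.288 to 0.482 CPM in BoM, so these lines rest on few reads (5 counts in the lowest library).

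ASNS, the asparagine synthetase, had 17 to 116 counts per library, and 49.3% of its exon bases are shared on the same strand with ENSG00000284707, which had 3 to 80 counts, so its count is uncertain. It had 0.596 to 1.45 CPM over the 18 libraries, and with filterByExpr its mean change was 0.01 (standard error 0.16, adjusted p = 0.97). CBS, the enzyme before CTH in cysteine synthesis, had at most 3 counts in a library. CBS has a near-identical copy in the annotation, CBSL, which had 0 counts in these libraries, so reads of this pair may not have been assigned and nothing is read from this count. A count of 3 corresponds to 0.0244 to 0.171 CPM, depending on the library, and covers counting error only.

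Of the 11 genes of ER folding and degradation, 4 were called lower in the average (36.4%, against 19.9% of all tested genes), and of these CRELD2 was called in 5 of the 18 fits that left out a library. None of the 11 was called higher (15.6% of all tested genes), where 1 was higher at an unadjusted p under 0.05 and DESeq2 called 1 higher. Of 32 tested further genes of the ATF6 and XBP1 arms, 5 were called lower (15.6%) and 3 higher (9.38%) in the average. The share lower was thus above that of all genes in the 11 and below it in the 32. The role groups were chosen with earlier results of these data known, and the shares were not tested. SEL1L, the scaffold of the ER ubiquitin ligase, had 134, 114 and 109 CPM in LM2 with shCtrl and 95.8, 99 and 88.5 CPM with shWDR5, which did not overlap. In BrM3 it had 107, 92.2 and 103 CPM against 90.3, 71.5 and 66.7 CPM, also without overlap, and in BoM 132, 98.9 and 118 CPM against 105, 78.9 and 78.3 CPM, which overlapped. SEL1L fell in the average by 0.38 on the log2 scale (standard error 0.08, adjusted p = 0.0013), with -0.33, -0.41 and -0.41 in LM2, BrM3 and BoM and no call in a single line (adjusted p = 0.17, 0.07 and 0.053). It was lower with shWDR5 in all 9 same-numbered pairs of libraries, and with the replicate number as a block it was called in LM2, BrM3 and BoM (adjusted p = 0.032, 0.0069 and 0.0051). Whether the numbers pair the libraries of LM2 and BrM3 is not settled by the correlations. Deviations of pairs 1, 2 and 3 correlated at 0.576, 0.0251 and 0.729 in LM2 and at 0.546, 0.515 and -0.178 in BrM3. Unmatched pairs reached 0.478 in LM2 and 0.523 in BrM3.

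PDIA4, a disulfide isomerase, had 136, 154 and 154 CPM in LM2 with shCtrl and 149, 146 and 149 CPM with shWDR5. It had 207, 209 and 202 CPM in BrM3 with shCtrl and 161, 179 and 181 CPM with shWDR5, and 217, 230 and 217 CPM in BoM with shCtrl and 189, 193 and 169 CPM with shWDR5. The groups overlapped in LM2 and did not in BrM3 and BoM. The log2 fold changes of PDIA4 were 0.00, -0.24 and -0.27 in LM2, BrM3 and BoM (standard error 0.08 each), with adjusted p of 1, 0.055 and 0.026, and the mean was -0.17 (standard error 0.04, adjusted p = 0.0069). The BoM call of PDIA4 was lost without replicate 1 or 2 of BoM shCtrl or replicate 3 of BoM shWDR5, and with every other filter tried.

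SDF2L1, a component of ER chaperone complexes, fell in the average by 0.43 (standard error 0.13, adjusted p = 0.017), and CRELD2, an ER stress-induced isomerase-like protein, by 0.28 (standard error 0.11, adjusted p = 0.0499). SDF2L1 was called in all 18 fits that left out a library and CRELD2 in 5 of them, with values from -0.33 to -0.22. The other 7 genes were not called. CALR and CANX, the lectin chaperones, had means of -0.08 and 0.15, PDIA6 had -0.09, HYOU1, a large chaperone of the HSP70 family, had -0.04, and MANF, a secreted ER protein, had -0.07. HERPUD1 and EDEM1, which act in ER-associated degradation, had 0.02 and -0.02. Of the 5 members with an ER stress response element in the window, CRELD2 was called lower in the average and CALR, CANX, PDIA6 and XBP1 were not called. Of the 4 with the C/EBP-ATF core, CEBPG was called higher in the average, CHAC1 and HERPUD1 were not called, and ASNS was below the filter. Of all tested genes, 19.9% were called lower and 15.6% higher in the average. With so few members, no tie between these motifs and the response can be read from the counts.

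The responses of the lines were compared through the difference between their log2 fold changes. For each of the pairs BrM3 and LM2, BoM and LM2, and BoM and BrM3, in this order, 0 of the 33 tested members were called by edgeR's quasi-likelihood test. Of all tested genes, 0.00828%, 0% and 0.00828% were called in these comparisons. At an unadjusted p under 0.05 there were 352, 625 and 349 genes, with 2, 3 and 0 members among them. DESeq2 called 18, 40 and 4 genes, of which 0 were members in each comparison. The members under 0.05 before adjustment were NUPR1 (-0.77 for BrM3 minus LM2, standard error 0.29), PDIA4 (-0.24 for BrM3 minus LM2 and -0.27 for BoM minus LM2), TRIB3 (-0.40 for BoM minus LM2) and PDIA6 (-0.21 for BoM minus LM2). The calls made in single lines are therefore not shown to differ between lines.

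Without knockdown some members differed between the lines, as many of all tested genes did. In shCtrl, 9 of the 33 tested members were higher in BrM3 than in LM2 (24.2% of all tested genes) and 6 were lower (23.4%). In BoM 10 were higher than in LM2 (25.9%) and 7 lower (25.8%), and 10 were higher in BoM than in BrM3 (17.8%) and 4 lower (19.8%). As shares of the tested members these are 27.3% and 18.2%, 30.3% and 21.2%, and 30.3% and 12.1%, against the shares of all tested genes given above. The 10 members higher in BoM than in BrM3 fell to 6 with filterByExpr and with no filter, to 5 without replicate 1 or 3 of BrM3 shCtrl, and to 6 without replicate 2 of BrM3 shCtrl or replicate 3 of BoM shCtrl. Shares of all genes in those fits are not given here. The comparisons of shCtrl between lines share libraries with each other and with the responses to shWDR5.

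**Figure D4:**
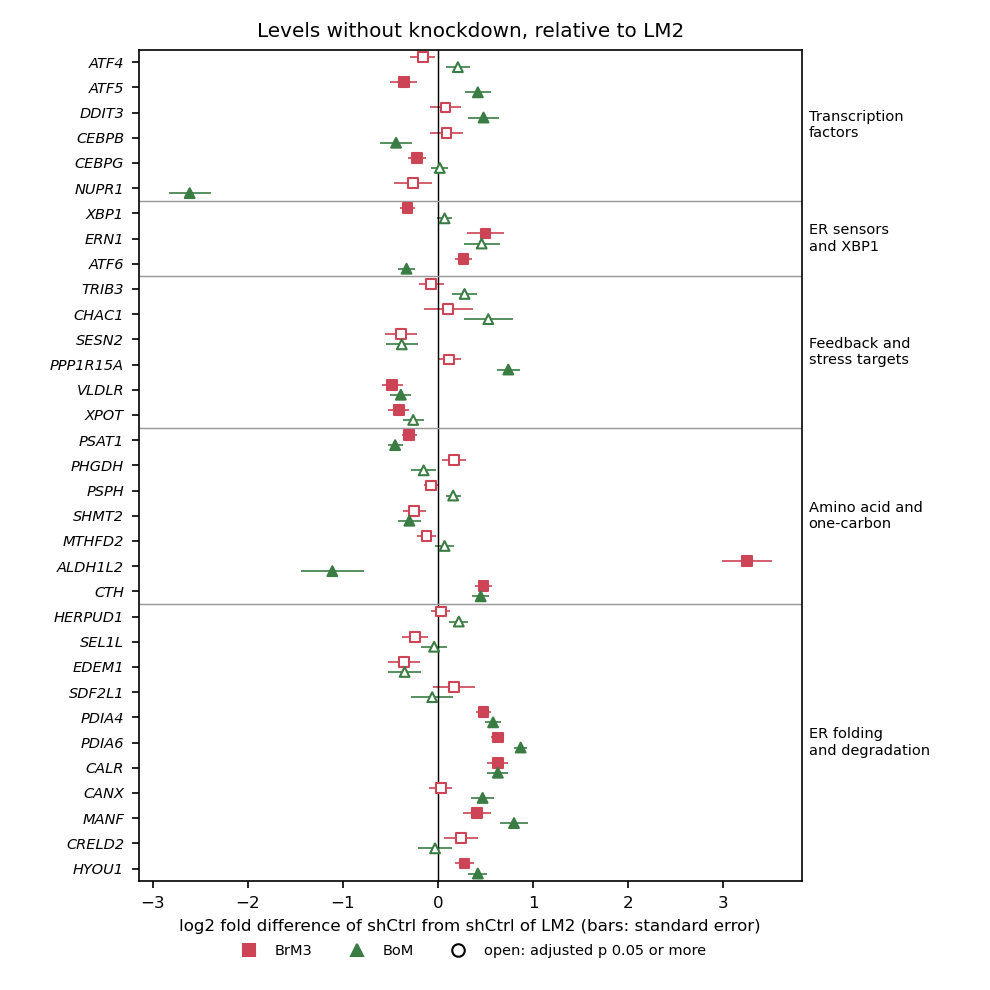
Log2 fold difference of shCtrl in BrM3 (squares) and BoM (triangles) from shCtrl in LM2 (x axis) for the 33 tested members by role (y axis), with bars for the standard error and filled points for an adjusted p under 0.05. ALDH1L2 in BrM3 (3.25) and NUPR1 in BoM (-2.61) stand farthest from 0, and PDIA4, PDIA6, CALR, MANF and HYOU1 are higher in both lines than in LM2.

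Of the 11 genes of ER folding and degradation, 5 were called higher in BrM3 than in LM2 (45.5%, against 24.2% of all tested genes) and 6 in BoM (54.5%, against 25.9%). They were PDIA4, PDIA6, CALR, MANF and HYOU1 in both lines and CANX in BoM, while SDF2L1, CRELD2, SEL1L, EDEM1 and HERPUD1 were not called. Of 32 tested further genes of the ATF6 and XBP1 arms, 9 were higher and 5 lower in BrM3 (28.1% and 15.6%), and 10 were higher and 6 lower in BoM (31.2% and 18.8%). Of the 11 genes, none was called lower by edgeR or by DESeq2, with 1 and 0 lower at an unadjusted p under 0.05. By edgeR, 23.4% of all tested genes were lower in BrM3 than in LM2 and 25.8% were lower in BoM. PDIA6 had 162, 154 and 152 CPM in LM2, 249, 243 and 231 CPM in BrM3 and 293, 279 and 285 CPM in BoM, and the lines did not overlap. Its log2 fold differences from LM2 were 0.63 in BrM3 and 0.87 in BoM (standard error 0.07 each, adjusted p = 6.3e-07 and 1.1e-08), and BoM exceeded BrM3 by 0.24 (adjusted p = 0.0084). CALR had 755, 834 and 832 CPM in LM2, 1310, 1288 and 1145 CPM in BrM3 and 1271, 1254 and 1235 CPM in BoM, a difference of 0.63 from LM2 in each (adjusted p = 1.1e-04 and 8.6e-05). MANF was higher by 0.41 in BrM3 and 0.80 in BoM, PDIA4 by 0.48 and 0.58, and HYOU1 by 0.28 and 0.42, all called. In BrM3 the MANF call was lost without replicate 1 or 2 of LM2 shCtrl or any 1 of the BrM3 shCtrl replicates (0.37 to 0.44), and the HYOU1 call without replicate 1 or 3 of LM2 shCtrl or any 1 of the BrM3 shCtrl replicates (0.23 to 0.31). CANX was higher in BoM by 0.47 against LM2 and 0.44 against BrM3 (adjusted p = 0.0025 and 0.0065).

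Among the factors, ATF5 stood at -0.36 in BrM3 and 0.42 in BoM relative to LM2 (adjusted p = 0.04 and 0.017), and ATF6 ran the other way, with 0.27 in BrM3 and -0.33 in BoM (adjusted p = 0.02 and 0.0047). Leaving out a library ended the ATF5 call in BrM3 in fits without replicate 2 or 3 of LM2 shCtrl or replicate 1 or 3 of BrM3 shCtrl (-0.53 to -0.28 over all fits) and the ATF5 call in BoM without replicate 1 of LM2 shCtrl or replicate 2 of BoM shCtrl (0.32 to 0.50). The ATF6 call in BrM3 was lost without replicate 2 or 3 of LM2 shCtrl or replicate 1 of BrM3 shCtrl (0.23 to 0.33). XBP1 was lower in BrM3 than in LM2 (-0.32, adjusted p = 0.0043), and BoM exceeded BrM3 by 0.39 (adjusted p = 0.0016). ATF4 was higher in BoM than in BrM3 by 0.37 (adjusted p = 0.036). Among the 3 pairs of lines it was not called in the others, and this call was kept in 13 of 18 fits that left out a library and lost without any 1 of the BrM3 shCtrl replicates or replicate 2 or 3 of BoM shCtrl (0.32 to 0.45). PPP1R15A was higher in BoM than in LM2 by 0.74 (adjusted p = 6.6e-05) and than in BrM3 by 0.61 (adjusted p = 6.8e-04). CTH was higher than in LM2 by 0.48 in BrM3 and 0.45 in BoM (adjusted p = 4.3e-04 and 7.6e-04).

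The widest differences were in genes with low levels. ALDH1L2 was 9.52-fold higher in BrM3 than in LM2 (log2 3.25, standard error 0.26, adjusted p = 1.7e-08), and BoM stood at -4.36 relative to BrM3 (standard error 0.30, adjusted p = 6.4e-09). This gene passed the filter only through BrM3, where it was high, so a difference between lines was part of what kept it. The same holds for NUPR1, which passed through LM2 and BrM3, while its highest normalized count in BoM was 94.4, under the threshold of 146. NUPR1 was lower in BoM than in LM2 (log2 difference -2.61, standard error 0.22, adjusted p = 3.9e-08) and than in BrM3 (-2.35, standard error 0.22, adjusted p = 3.4e-07). PSAT1 was lower than in LM2, with -0.30 in BrM3 and -0.45 in BoM, and so was VLDLR, with -0.48 and -0.39, all called.

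Levels of different members were compared only per kilobase of exon, with the length taken over all annotated exons of a gene together. This length was 13764 bases for CANX, 2802 for CALR and 2206 for PSAT1. Before the division, CANX had a mean of 1190 CPM in LM2 with shCtrl, CALR 807 CPM and PSAT1 255 CPM. The order below therefore depends on the annotated length, and which exons these cells use was not measured. In shCtrl, CALR was the highest member in each line, with 288, 445 and 447 CPM per kilobase in LM2, BrM3 and BoM (SD 16.1, 32 and 6.36, n = 3 libraries each), followed by ATF4 with 181, 162 and 210 (SD 16.5, 3.89 and 19.7). The ranges of CALR and ATF4 did not overlap. PSAT1 was next in LM2 and BrM3 with 116 and 93.7, and CANX in BoM with 120. In BrM3 the ranges of PSAT1 (91.4 to 95.9) and CANX (82.8 to 91.7) met, so their order there is within the spread.

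**Figure D5:**
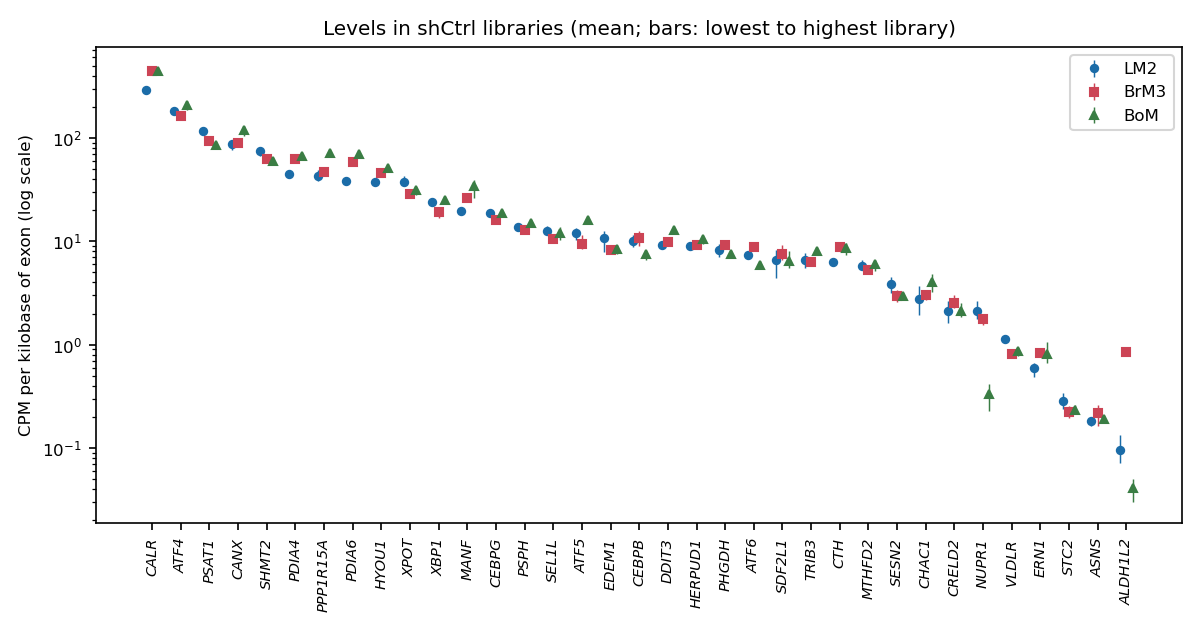
CPM per kilobase of exon (y axis, log scale) in shCtrl for all members except CBS, ordered by their mean in LM2 (x axis), with points for the mean of 3 libraries in LM2, BrM3 and BoM and bars from the lowest to the highest library. CALR and ATF4 stand at the top in all 3 lines, and the lines part most for NUPR1 and ALDH1L2.

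Beside the members, 61 further genes of the same pathways were examined, of which 58 passed the filter. In LM2, 0 of the 58 were called by edgeR (1.48% of all tested genes were higher and 4.78% lower), where 4 were higher and 3 lower at an unadjusted p under 0.05 and DESeq2 called 1 higher. In BrM3, 2 were lower (3.45%, against 7.87% of all tested genes) and 0 higher (2.87% of all tested genes), where 6 were higher at an unadjusted p under 0.05 and DESeq2 called 1. In BoM, 3 were higher (5.17%, against 5.41%) and 3 lower (5.17%, against 10.7%), and in the average 10 (17.2%) were higher and 6 (10.3%) lower, against 15.6% and 19.9% of all tested genes. The genes called in single lines, named after their values were seen, were HSPA5 (BiP, the main ER chaperone, -0.35 in BrM3, adjusted p = 0.034), EDEM2 (a mannosidase-like degradation factor, -0.34 in BrM3 and -0.54 in BoM, adjusted p = 0.048 and 0.0025) and, in BoM alone among the single lines, OS9 (a lectin of the SEL1L complex, -0.50), MBTPS2 (a protease that cleaves ATF6, -0.44), EIF2AK4 (the eIF2 kinase GCN2, 0.30), SLC38A2 (an amino acid transporter, 0.52) and FKBP14 (an ER prolyl isomerase, 0.41). None of the 58 was called in all 3 lines.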

How the data were processed

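RNA of 18 cultures was sequenced from stranded mRNA libraries, and the authors deposited raw gene counts made with STAR 2.7.0 on hg38, with CASAVA 1.8.2 named in the submitters' processing notes. The log2 fold changes and adjusted p-values that the authors deposited from DESeq2 were not used. The paper names spike-in RNA for scaling, but the table holds 0 spike-in rows, so library sizes were scaled by TMM, and a change of total RNA per cell cannot be seen. Groups came from the sample titles, since the source field of most libraries gives a line that goes against its title, and 0 columns were left unused. Expressed genes (12081) were those with a highest normalized count above 146, where the Jaccard index between replicates peaked (0.97). A single edgeR 4.0.16 quasi-likelihood fit in R 4.3.3 held 6 groups with 12 residual degrees of freedom, with Benjamini-Hochberg adjustment. The fit was tested on simulated data. Members, role groups and the further pathway list were chosen with earlier results of these data known. Every library is given for members called in at least 2 lines or with an absolute log2 fold change of at least 1 in a called line, and for a few others (ATF4, ERN1, STC2, SEL1L, PDIA4 and the ALDH1L2, PDIA6 and CALR levels) chosen after their values were seen. Alternatives were DESeq2 1.42.0, filterByExpr (18428 genes), no filter (41236 genes), a replicate block, each line alone, a GC correction (loess, span 0.5), thinning to 17485841 counts and leaving out each library. Same-numbered shCtrl and shWDR5 libraries, numbered by the sample titles, correlated in their deviations over 0.1 for each pair in BoM (0.145 to 0.566) and not for each pair in the other lines. Gene coordinates are from GENCODE release 44. Replicate pairs differed by more than sampling noise.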

Additional observations from a re-analysis of the deposited data

How the results depend on the processing

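No called change of a member turned its direction under any alternative tried. DDIT3 in LM2, PPP1R15A and CTH in each line and NUPR1 in BrM3 were called under every alternative and in all 18 fits that left out a library. The numbers of members called moved more. With shWDR5 in LM2 (3 higher, 0 lower) they were 5 and 1 with DESeq2, 5 higher with no filter, and 9 and 2 with the GC correction, where calls over all genes also rose, from 1.48% higher and 4.78% lower to 3.39% and 6.07% with DESeq2 and 5.74% and 7.57% with the GC correction, and fell to 0.628% and 1.71% with no filter. In BrM3 (2 higher, 1 lower) they were 5 and 3 with DESeq2, 4 higher with filterByExpr or no filter, 4 and 2 for the line alone, and 7 and 4 with the GC correction; over all genes 2.87% and 7.87% became 5.28% and 9.35% with DESeq2, 4.82% and 8.13% for the line alone and 8.73% and 11.7% with the GC correction, and the share higher was 2.73% with filterByExpr and 0.989% with no filter. In BoM (4 higher, 1 lower) they were 7 and 3 with DESeq2, 8 and 4 with the GC correction, and 2 and 0 for the line alone; lower members numbered 0 with filterByExpr, 2 with no filter and 2 after thinning. Over all genes in BoM 5.41% and 10.7% became 8.87% and 11.5% with DESeq2, 10.1% and 13.7% with the GC correction and 1.61% and 5.84% for the line alone, and the share lower was 8.46%, 3.88% and 9.03% with filterByExpr, no filter and thinning. In shCtrl, members lower in BrM3 than in LM2 (6) fell to 2 with no filter, members higher in BoM than in LM2 (10) rose to 16 with the GC correction, and members higher in BoM than in BrM3 (10) fell to 6 with filterByExpr and 6 with no filter. Shares of all genes under these settings are not given for shCtrl, so a shift of the members cannot be told from a general one. DDIT3, ERN1 and PDIA4 lost their BoM calls with the line alone. In BrM3, DDIT3 and ERN1 were called with DESeq2, filterByExpr, no filter, the replicate block, the line alone and the GC correction, and not after thinning. Leaving out 1 library gave 0 to 1 lower in LM2 (1 without BoM shWDR5 replicate 1). In BrM3 it gave 2 to 4 higher (4 without BrM3 shWDR5 replicate 1 or BoM shWDR5 replicate 1 or 2) and 1 to 4 lower (4 without BoM shWDR5 replicate 1, 3 without LM2 shCtrl replicate 1 or BoM shWDR5 replicate 3, and 2 without BrM3 shWDR5 replicate 1). In BoM it gave 0 to 3 lower (0 without BoM shCtrl replicate 1, 2 without LM2 shCtrl replicate 1 or BoM shWDR5 replicate 1, and 3 without BrM3 shWDR5 replicate 1). In shCtrl it gave 5 to 9 higher in BrM3 than in LM2 (5 without BrM3 shCtrl replicate 1) and 5 to 11 higher in BoM than in BrM3 (5 without BrM3 shCtrl replicate 1 or 3, and 6 without BrM3 shCtrl replicate 2 or BoM shCtrl replicate 3). The fits that left out a library likewise stand without the shares of all genes. In the average, CRELD2 was lost with filterByExpr, with no filter and after thinning, and PDIA4 with no filter. DESeq2 and the replicate block each gained ALDH1L2 (lower) and CANX, MTHFD2 and PSAT1 (higher) there. With filterByExpr CANX, MTHFD2, PSAT1 and STC2 were gained, with no filter ALDH1L2, CANX and STC2, and with the GC correction ALDH1L2, ATF6 and TRIB3. Over all genes 15.6% higher and 19.9% lower became 19.7% and 19.8% with DESeq2 and 22.2% and 24.8% with the block. The cause of these shifts was not tested.

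Same-numbered shCtrl and shWDR5 libraries of a line had deviations that correlated between -0.178 and 0.729, over 0.1 for each pair in BoM (0.145 to 0.566) but not for each pair in LM2 and BrM3, so the numbers were not taken to pair the libraries of all lines. With the replicate block (6 residual degrees of freedom), LM2 had 6 members higher and 1 lower (3.86% and 8.01% of all genes), BrM3 had 4 higher and 5 lower (6.29% and 12.6%), and BoM had 8 higher and 3 lower (11.2% and 15%). The block gained ERN1, SESN2 and TRIB3 (higher) and SEL1L (lower) in LM2. In BrM3 it gained DDIT3 and ERN1 (higher) and ALDH1L2, CHAC1, PDIA4 and SEL1L (lower). In BoM it gained the members named above, and no call in a line was lost. For shCtrl a separate fit took the replicate number as a factor shared by the lines, and 10 members were lower in BrM3 than in LM2. The labels do not say that numbers match between lines, and the share of all genes in that fit is not given here.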
